A study of Bos taurus with 13 samples.

Results

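Immediate early genes are switched on within minutes of a stimulus without new protein synthesis. Most encode transcription factors of the FOS/JUN, EGR and NR4A families, or feedback proteins that end the response, such as DUSP phosphatases that remove phosphate from MAP kinases and ZFP36 that destabilises messenger RNA. In a dissected tissue their RNA reflects signals acting on the living cells as well as the time and handling between removal and freezing. In the testis, NR4A1 is known in rodents as a factor that luteinising hormone induces in Leydig cells, and EGR4 is known in mice as a gene needed for normal male germ cell maturation.

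A list of 36 such genes was followed in testis RNA of 13 newborn bull calves, measured on Affymetrix bovine arrays with 1 array per calf. A gene was represented by the probe set whose only annotated symbol was that gene. Of the 36 genes, 35 were found, each with exactly 1 probe set, among 18087 genes and 26773 probe sets in all. CYR61 did not occur under that symbol. Its current symbol CCN1 did occur, and it was kept outside the counts.

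The dams were Angus cross cows with free access to a mineral mix holding 35 ppm of selenium, from 4 months before breeding and through gestation. Mix calves (n = 4) came from cows given selenium 50% as sodium selenite and 50% as a selenium yeast product, OSe calves (n = 4) from cows given the yeast product alone, and ISe calves (n = 5) from cows given sodium selenite alone. There was no group without added selenium, and 24 cows, 8 per form, had entered the trial. Testes were taken within 2 days of birth. The handling of single testes was not used here, so differences in handling, age in hours and other differences between calves cannot be told apart.

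Array medians lay between 7.61 and 7.65 on the log2 scale for 12 calves and at 7.74 for OSe animal 2, in which 24.4% of all probe sets had their highest value. Pairs of arrays correlated at 0.979 to 0.991 across probe sets. Testis markers were bright, with INSL3 of Leydig cells at 13.44, AMH of Sertoli cells at 12.48 and DAZL of germ cells at 11.15 as means over all calves. In bulk tissue, fewer cells of a type and less RNA per cell cannot be told apart, and this holds for each value that follows. All expression values are log2 array values. Brightness ranks array signal only, and since probe sets bind unequally it does not rank RNA amounts between genes.

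The immediate early genes were spread over the brightness range of the array. The median probe set averaged 7.64, and 21 of the 35 genes lay at or above it ("bright") while 14 lay below it ("dim"). The brightest were BTG1 (10.55) and BTG2 (9.46), which restrain cell proliferation, the kinase SGK1 (10.25), the phosphatase DUSP6 (9.64) and the FOS relative FOSL2 (9.52). The dimmest were EGR3 (5.81), FOSL1 (6.43), ATF3 (6.56), DUSP2 (6.91) and KLF4 (6.95). EGR3 was the only one of the 35 below the 25th percentile of all probe sets, which was 6.26. The map of deviations shows the genes in this order.

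**Figure D1:**
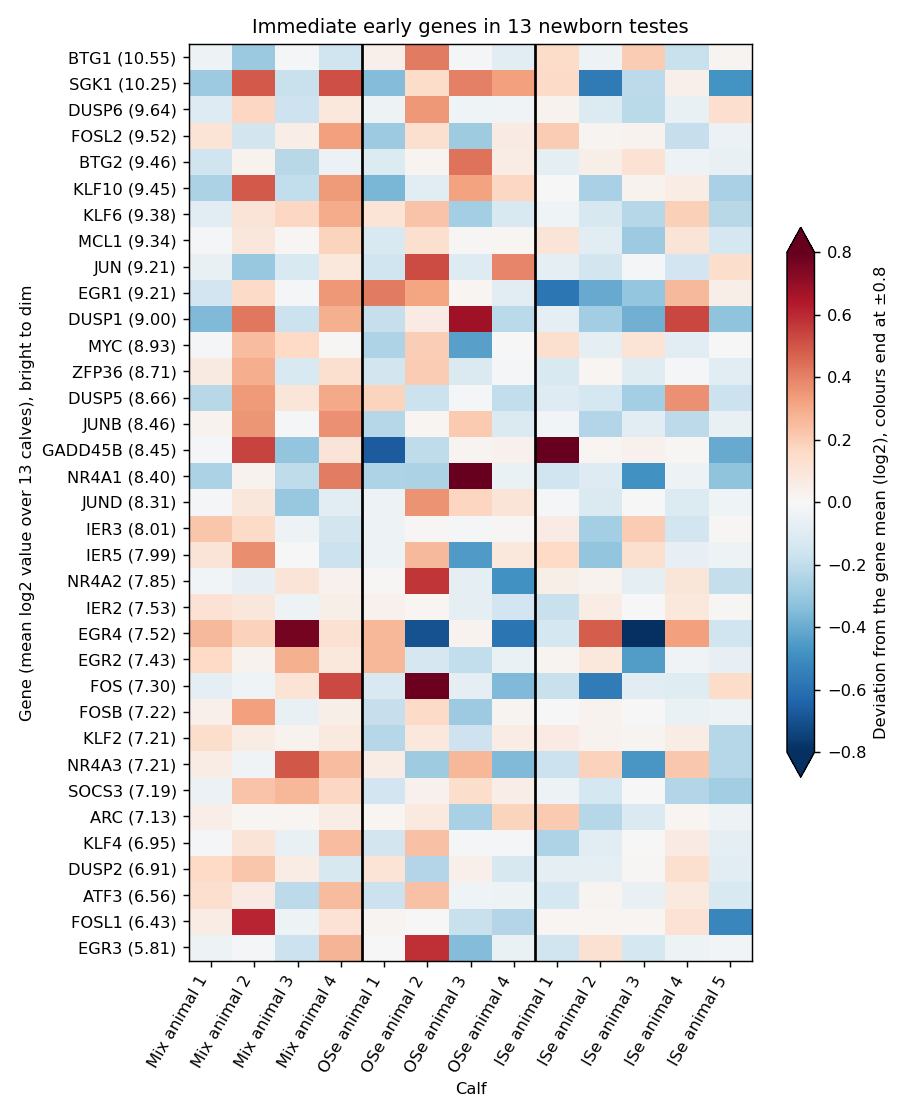
Deviation of each of the 35 immediate early genes (rows, bright to dim, with the mean log2 value in brackets) from its own mean over 13 calves (columns: Mix, OSe, ISe, parted by black lines), with colours ending at ±0.8. Mix animals 2 and 4 are mostly red, the NR4A1 cell of OSe animal 3 and the FOS cell of OSe animal 2 are the darkest of their rows, and EGR4 is red in all 4 Mix calves and of both colours in OSe and ISe.

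Bright genes of this list varied more than other bright probe sets, whereas dim ones varied less than other dim probe sets. The SD over 13 calves had a median of 0.20 among the 21 bright genes, against 0.15 among all probe sets at or above the median. Among the 14 dim genes it was 0.16, against 0.20 among all probe sets below the median. These dim sets were not alike in brightness, with a median of the means of 7.20 for the 14 genes and 6.26 for all dim probe sets. The part of brightness in their SDs was not tested. The widest SDs belonged to NR4A1 (0.55), EGR4 (0.47), GADD45B (0.38), SGK1 (0.37), DUSP1 (0.36) and FOS (0.35). The narrowest belonged to IER2 (0.09), KLF2 (0.12) and MCL1 (0.13). These medians describe the list and carry no test.

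Among the FOS and JUN proteins, which pair to form the AP-1 transcription factor, single calves of more than 1 form stood out. FOS read 7.23, 7.27, 7.41 and 7.83 in Mix calves, 7.18, 8.09, 7.23 and 6.95 in OSe calves, and 7.13, 6.74, 7.21, 7.21 and 7.45 in ISe calves. OSe animal 2 and Mix animal 4 held the highest FOS values, the lowest lay in ISe animal 2, and all 3 ranges overlapped. JUN read 9.15, 8.91, 9.09 and 9.29 in Mix calves, 9.05, 9.73, 9.11 and 9.60 in OSe calves, and 9.14, 9.06, 9.19, 9.06 and 9.35 in ISe calves. JUN was thus highest in OSe animals 2 and 4, of which only animal 2 was also high in FOS.

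JUNB, another JUN family member, read 8.49, 8.82, 8.45 and 8.83 in Mix calves, 8.23, 8.48, 8.67 and 8.35 in OSe calves, and 8.44, 8.23, 8.38, 8.25 and 8.40 in ISe calves. Every Mix value lay above every ISe value, the closest calves being Mix animal 3 at 8.45 and ISe animal 1 at 8.44. JUND, the constitutively expressed JUN relative, read 8.30, 8.40, 8.01 and 8.23 in Mix calves, 8.27, 8.67, 8.49 and 8.42 in OSe calves, and 8.30, 8.20, 8.31, 8.21 and 8.28 in ISe calves. Only 1 OSe calf, animal 1, fell within the ISe range of JUND. FOSB averaged 7.31 ± 0.17 in Mix, 7.15 ± 0.20 in OSe and 7.21 ± 0.03 in ISe calves (SD, n = 4, 4 and 5).

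FOSL1 averaged 6.62 ± 0.29 in Mix, 6.34 ± 0.13 in OSe and 6.36 ± 0.26 in ISe calves (SD, n = 4, 4 and 5). FOSL2 averaged 9.61 ± 0.20 in Mix, 9.43 ± 0.22 in OSe and 9.52 ± 0.14 in ISe calves. The stress-induced repressor ATF3 read 6.69, 6.63, 6.35 and 6.81 in Mix calves, 6.39, 6.79, 6.53 and 6.52 in OSe calves, and 6.42, 6.59, 6.50, 6.64 and 6.44 in ISe calves. The 3 ranges of ATF3 overlapped, with Mix animals 1 and 4 and OSe animal 2 highest.

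The 4 EGR genes, zinc finger factors induced by MAP kinase signalling, did not share a pattern. EGR1 read 9.05, 9.36, 9.20 and 9.55 in Mix calves, 9.62, 9.53, 9.22 and 9.12 in OSe calves, and 8.63, 8.81, 8.90, 9.47 and 9.25 in ISe calves. ISe animals 1, 2 and 3 lay below every Mix and OSe calf in EGR1, whereas ISe animals 4 and 5 lay within their ranges. EGR4 read 7.77, 7.70, 8.29 and 7.64 in Mix calves, 7.78, 6.82, 7.54 and 6.94 in OSe calves, and 7.37, 8.00, 6.67, 7.84 and 7.36 in ISe calves. Low EGR4 values thus came from OSe animals 2 and 4 and ISe animal 3, and none from Mix. EGR2 averaged 7.56 ± 0.11 in Mix, 7.40 ± 0.20 in OSe and 7.34 ± 0.21 in ISe calves (SD, n = 4, 4 and 5). EGR3 averaged 5.82 ± 0.19 in Mix, 5.85 ± 0.39 in OSe and 5.76 ± 0.11 in ISe calves, and OSe animal 2 held its highest value.

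**Figure D2:**
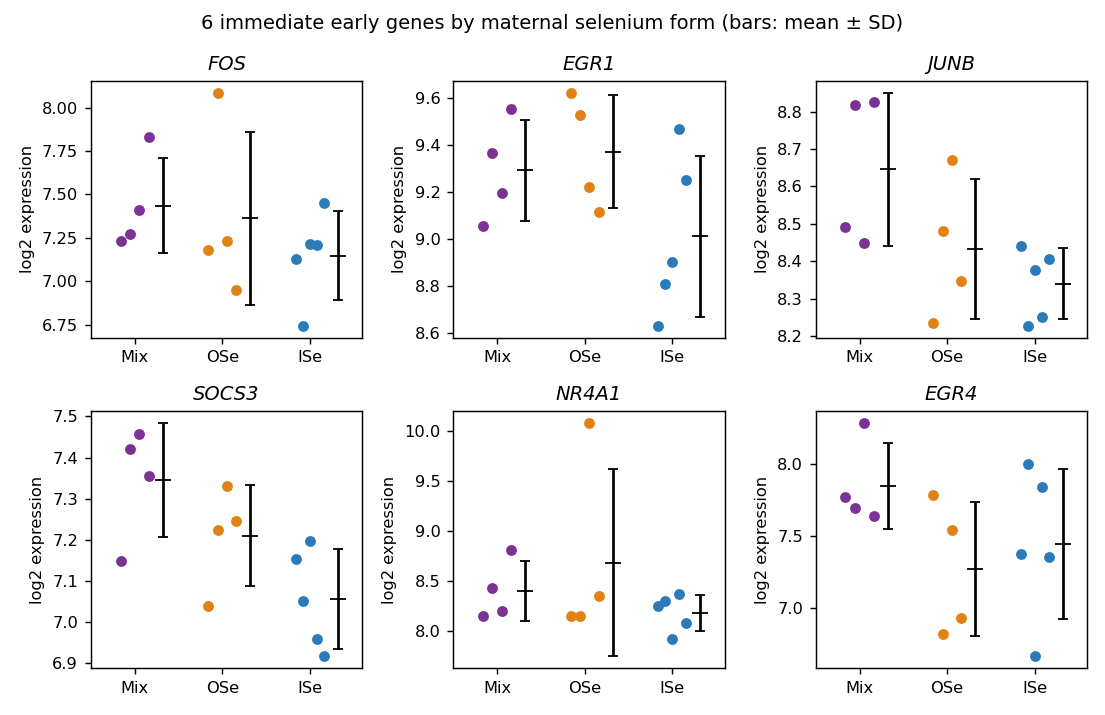
Log2 expression of FOS, EGR1, JUNB, SOCS3, NR4A1 and EGR4 in Mix (left), OSe (middle) and ISe (right) calves, 1 point per calf, with the mean and SD of a form as a bar beside its points. NR4A1 of OSe animal 3 stands at 10.08 while the other 12 calves lie between 7.91 and 8.81, and in JUNB the Mix points lie above all ISe points.

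The NR4A genes encode nuclear receptors that act without a known natural ligand. NR4A1 read 8.15, 8.43, 8.20 and 8.81 in Mix calves, 8.15, 8.15, 10.08 and 8.35 in OSe calves, and 8.24, 8.30, 7.91, 8.36 and 8.08 in ISe calves. OSe animal 3 alone held the high value, and the other 12 calves ran from 7.91 to 8.81. NR4A3 read 7.27, 7.18, 7.71 and 7.46 in Mix calves, 7.27, 6.93, 7.47 and 6.86 in OSe calves, and 7.04, 7.39, 6.75, 7.43 and 6.98 in ISe calves. Like EGR4, NR4A3 was highest in Mix animal 3 and lowest in ISe animal 3. NR4A2 averaged 7.86 ± 0.07 in Mix, 7.86 ± 0.43 in OSe and 7.83 ± 0.11 in ISe calves, with its highest and lowest values both in OSe (8.42 in animal 2 and 7.37 in animal 4).

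Of the feedback genes, SOCS3, which dampens cytokine receptor signalling, had the largest share of its variation between forms of the 35 genes. It read 7.15, 7.42, 7.46 and 7.36 in Mix calves, 7.04, 7.22, 7.33 and 7.25 in OSe calves, and 7.15, 7.05, 7.20, 6.96 and 6.92 in ISe calves. Mix animals 2, 3 and 4 lay above all ISe calves, and Mix animal 1 lay within their range. DUSP1, which dephosphorylates p38 and JNK kinases, read 8.65, 9.42, 8.83 and 9.29 in Mix calves, 8.82, 9.07, 9.68 and 8.79 in OSe calves, and 8.93, 8.73, 8.62, 9.54 and 8.68 in ISe calves. High and low DUSP1 values thus occurred side by side within each form.

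ZFP36 averaged 8.80 ± 0.17 in Mix, 8.69 ± 0.16 in OSe and 8.65 ± 0.06 in ISe calves (SD, n = 4, 4 and 5). IER2, a nuclear protein of the early response, averaged 7.58 ± 0.07 in Mix, 7.48 ± 0.09 in OSe and 7.52 ± 0.10 in ISe calves. The form means of DUSP2, DUSP5, DUSP6, IER3 and IER5 differed by at most 0.19 between any pair of forms, the widest gap being that of DUSP5 in Mix minus ISe. Overlap of all 3 ranges was seen in both ZFP36 and IER2.

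Among growth and survival genes, SGK1 read 9.96, 10.75, 10.07 and 10.77 in Mix calves, 9.90, 10.40, 10.66 and 10.58 in OSe calves, and 10.40, 9.69, 10.05, 10.30 and 9.78 in ISe calves. KLF10, a zinc finger factor induced by TGF-beta, read 9.19, 9.94, 9.25 and 9.79 in Mix calves, 9.09, 9.36, 9.77 and 9.61 in OSe calves, and 9.45, 9.19, 9.47, 9.50 and 9.19 in ISe calves. Both genes split the Mix calves in the same way, with animals 2 and 4 high and animals 1 and 3 low. GADD45B, a stress sensor, read 8.44, 8.99, 8.13 and 8.55 in Mix calves, 7.78, 8.25, 8.47 and 8.48 in OSe calves, and 9.28, 8.46, 8.48, 8.46 and 8.04 in ISe calves. Its extremes were ISe animal 1 and OSe animal 1, and the forms overlapped.

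BTG2 averaged 9.36 ± 0.11 in Mix, 9.56 ± 0.23 in OSe and 9.46 ± 0.08 in ISe calves (SD, n = 4, 4 and 5). MYC, a growth-promoting factor, averaged 9.03 ± 0.12 in Mix, 8.81 ± 0.28 in OSe and 8.95 ± 0.10 in ISe calves. OSe animal 3 had the highest BTG2 value, 9.90, and the lowest MYC value, 8.49. BTG1, which was lowest in Mix animal 2, averaged 10.43 ± 0.13 in Mix, 10.64 ± 0.22 in OSe and 10.58 ± 0.15 in ISe calves. KLF2, KLF4, KLF6, MCL1 and ARC differed by at most 0.20 between any pair of form means, the widest gap being that of KLF6 in Mix minus ISe. CCN1, a matricellular protein, averaged 8.74 ± 0.08 in Mix, 8.68 ± 0.55 in OSe and 8.61 ± 0.25 in ISe calves, with both extremes in OSe (animal 2 high, animal 4 low).

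Taking all 35 genes by calf, high values gathered in Mix animals 2 and 4, and in OSe animal 2, whose array read high as a whole. Mix animal 2, Mix animal 4 and OSe animal 2 each held the highest value of the 13 calves for 7 genes, and OSe animal 4 and ISe animals 2, 3 and 5 for none. As background, 8.44%, 8.39% and 24.4% of all probe sets peaked in Mix animal 2, Mix animal 4 and OSe animal 2, so that the count of OSe animal 2 lay near its background. For OSe animal 4 and ISe animals 2, 3 and 5 the background was lower, at 7.02%, 4.14%, 7.21% and 3.81%. The mean deviation of the 35 genes was 0.16 in Mix animal 2 and 0.15 in Mix animal 4, but -0.02 and -0.001 in Mix animals 1 and 3. OSe calves 1 to 4 stood at -0.08, 0.12, 0.03 and -0.05, and ISe calves 1 to 5 at -0.01, -0.09, -0.11, 0.03 and -0.12. After each array was centred on its median, OSe animal 2 stood at 0.02, while Mix animals 2 and 4 stood at 0.16 and 0.18. Of the 35 genes, 28 lay above their own mean in Mix animal 2, 29 in Mix animal 4, 27 in OSe animal 2, and 8 in ISe animal 5. All probe sets had a mean deviation of 0.004, -0.008, 0.11 and -0.006 in these calves. How many of all probe sets lay above their own mean was not counted.

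Differences between forms accounted for a minor share of the variation of most of these genes. The between-form share of the sum of squares had a median of 20.5% over the 35 genes, against 13.7% over all probe sets, and ran from 0.357% for NR4A2 to 53.9% for SOCS3. JUNB (44.4%), JUND (41.9%) and EGR1 (29.5%) were among the higher ones. Bright and dim genes had like medians, 18.8% and 20.6%. No gene of the array passed limma's moderated F test over the 3 forms at an adjusted p of 0.05 (0 of 26773 probe sets, and 1206 at an unadjusted p under 0.05, which is 4.5%). Of the 35 genes, 2 had an unadjusted p under 0.05, SOCS3 and JUNB, each with an adjusted p of 0.954 in limma.

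The genes of the list were weakly related to one another over calves. Their 595 pairs had a median Pearson r of 0.18, against 0.04 for all pairs of genes on the array. Of the pairs, 414 had an r above 0, where 54.3% of all gene pairs did, and 19 pairs (3.19%) reached 0.7, where 1.49% of all gene pairs did. The median was 0.15 after each calf's form mean was taken off, and also 0.15 after quantile normalization or after centring each array. Bright pairs and dim pairs had medians of 0.20 each, and of 0.16 and 0.10 after quantile normalization. Without the form means the dim pairs had a median of 0.03, whereas the bright pairs remained at 0.20. Genes are not independent of one another, and these medians carry no test.

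**Figure D3:**
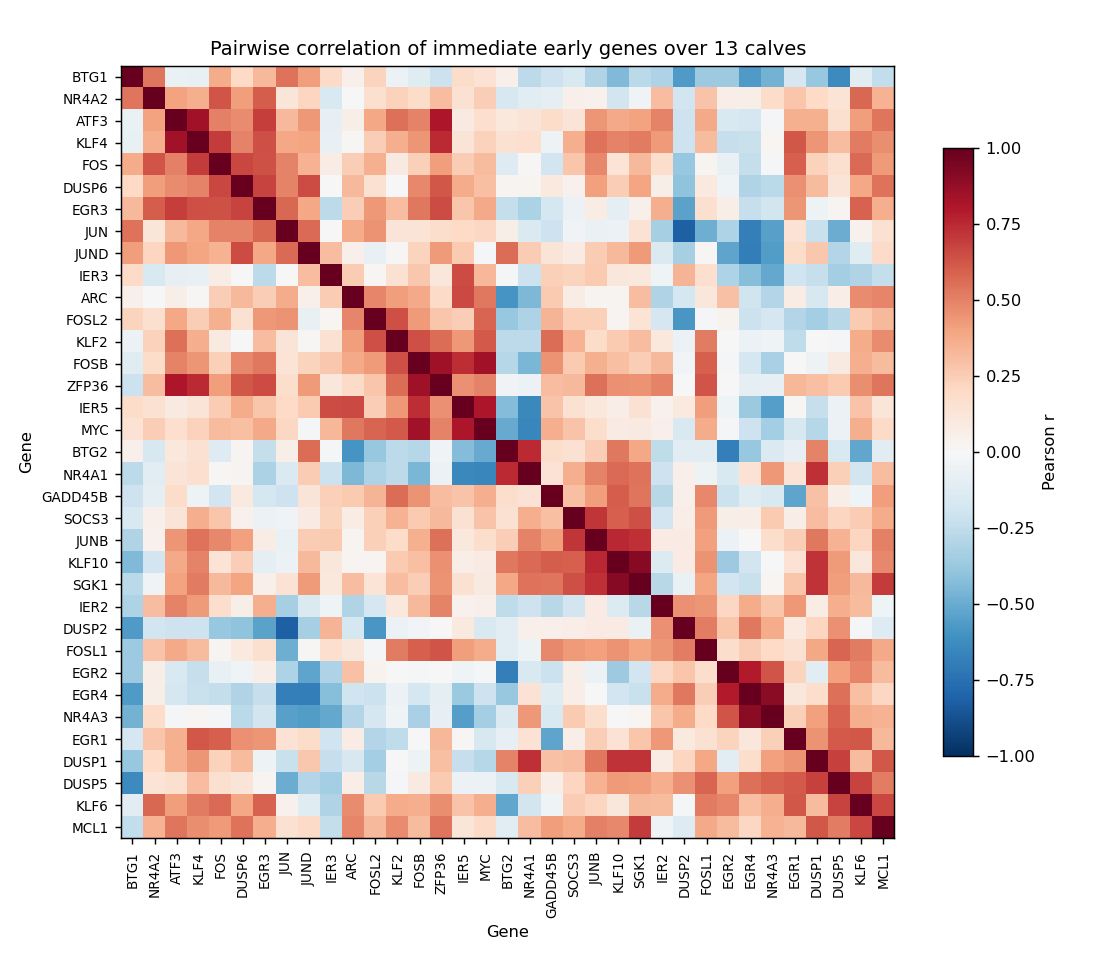
Pearson r over 13 calves for every pair of the 35 immediate early genes, ordered so that genes with like profiles adjoin, from blue (-1) through white (0) to red (1). Small red blocks stand for KLF10 with SGK1, for EGR2, EGR4 and NR4A3, and for FOSB with ZFP36, MYC and IER5, while JUN and JUND are blue against EGR4.

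Of the 595 pairs, 5 passed a permutation test of r at an adjusted p under 0.05 (100000 resamples, two-sided, adjusted over the 595 pairs), 4 of them positive. KLF10 and SGK1 had an r of 0.91 (adjusted permutation p = 0.00992) and a rho of 0.91 (adjusted p = 0.0416). Without the 2 calves farthest from the median of KLF10 their r was 0.90. EGR4 and NR4A3 had an r of 0.90 (adjusted p = 0.00297) and a rho of 0.79 (adjusted p = 0.148), and r was 0.86 without 2 calves. FOSB and ZFP36 had an r of 0.845 (adjusted p = 0.00297) and a rho of 0.89 (adjusted p = 0.0436), with 0.81 without 2 calves. These 3 pairs had r between 0.74 and 0.94 whichever calf was left out, but FOSB and ZFP36 missed the threshold without Mix animal 2 (adjusted p = 0.214), without OSe animal 2 (0.0575) and after quantile normalization (0.096).

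ATF3 and KLF4, a zinc finger factor of epithelial differentiation, had an r of 0.84 (adjusted permutation p = 0.0405) and a rho of 0.75 (adjusted p = 0.163), and 0.64 without 2 calves. JUN and the phosphatase DUSP2 ran opposite, with an r of -0.815 (adjusted p = 0.0372) and a rho of -0.81 (adjusted p = 0.148), and -0.73 without 2 calves. Taking off the form means kept the size of both relations, 0.83 and -0.82, but neither then passed (adjusted p = 0.0516 and 0.0578). The next most positive pair, FOSB with MYC, had an r of 0.84 and missed the threshold (adjusted p = 0.0506; rho 0.60, adjusted p = 0.342; r without 2 calves 0.66). The other 2 of the 3 most negative pairs were JUND with EGR4 at -0.69 (adjusted p = 0.225; rho -0.77, adjusted p = 0.148) and JUN with EGR4 at -0.69 (adjusted p = 0.269; rho -0.74, adjusted p = 0.163). Without 2 calves these were -0.40 and -0.42.

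The classic members were loosely related to one another. Among FOS, JUN, JUNB, EGR1, ATF3, IER2, NR4A1, DUSP1, ZFP36 and BTG2, 35 of 45 pairs had an r above 0, with a median of 0.24, and none passed the adjusted test of r (4 had an unadjusted permutation p under 0.05), whereas 1, ATF3 with ZFP36, passed that of rho. FOS and EGR1 had an r of 0.60 (permutation p = 0.0302, adjusted p = 0.327) and a rho of 0.53 (p = 0.0636, adjusted p = 0.437), and 0.42 without 2 calves. FOS and JUN had an r of 0.49 (p = 0.0847, adjusted p = 0.449; rho 0.35, p = 0.243, adjusted p = 0.663), which was -0.14 without 2 calves and 0.06 without OSe animal 2 alone. The relation of FOS with JUN therefore rested on OSe animal 2. FOS and NR4A1 had an r of 0.01 (p = 0.964, adjusted p = 0.989; rho -0.12, p = 0.682, adjusted p = 0.856).

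NR4A1 and DUSP1 had an r of 0.73 (permutation p = 0.00107, adjusted p = 0.066; rho 0.77, p = 0.0032, adjusted p = 0.148), and 0.67 without 2 calves. NR4A1 and BTG2 had an r of 0.75 (p = 0.0426, adjusted p = 0.378), but a rho of 0.30 (p = 0.315, adjusted p = 0.69), and r was 0.0019 without 2 calves and -0.03 without OSe animal 3 alone. That relation rested on OSe animal 3. ATF3 and ZFP36 had an r of 0.81 (p = 8.1e-04, adjusted p = 0.0647; rho 0.87, p = 2.2e-04, adjusted p = 0.0436), and 0.73 without 2 calves.

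Each calf's values were next set beside lists of cell type and stress genes, where a list is summed up by the mean deviation of its genes in a calf. FOS and EGR1 followed none of 15 such lists at an adjusted permutation p under 0.05 (0 of 30 relations by r or rho, and 1 of each at an unadjusted p under 0.05). By r it was FOS with other inducible early genes, at an r of 0.64 (permutation p = 0.0209, adjusted p = 0.628; rho 0.42, p = 0.16, adjusted p = 0.895), which was 0.13 without 2 calves. By rho it was EGR1 with granulocyte genes, at 0.62 (permutation p = 0.0282, adjusted p = 0.846; r 0.49, p = 0.0878, adjusted p = 0.659), with an r of 0.48 without 2 calves. With the heat shock genes r was -0.04 for FOS and 0.30 for EGR1 (adjusted permutation p = 0.99 and 0.808). With the hypoxia genes it was 0.22 for FOS and -0.04 for EGR1 (adjusted permutation p = 0.943 and 0.99).

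All 35 genes were then related to the same 15 lists, a step added after seeing the data, and 3 of 525 relations passed (72 at an unadjusted permutation p under 0.05). EGR4 followed the germ cell list (DDX4, DAZL, UCHL1, ZBTB16, GFRA1, MAEL and TDRD1) with an r of 0.94 (adjusted permutation p = 0.00525) and a rho of 0.91 (adjusted p = 0.042). It was 0.88 without 2 calves, 0.92 to 0.95 with any 1 calf left out, and 0.92 with the form means taken off. NR4A3 followed the same list with an r of 0.86 (adjusted p = 0.0385) and a rho of 0.78 (adjusted p = 0.131), and 0.71 without 2 calves. With 1 calf left out its r ran from 0.79 to 0.95, and it passed only without OSe animal 3, ISe animal 1 or ISe animal 5 (adjusted p up to 0.151, without Mix animal 3). As background, 5.48% of all genes reached an r of 0.7 with the germ cell list, and 3 of the 35 did. JUND ran opposite to that list with an r of -0.82, which missed the threshold (adjusted p = 0.0866; rho -0.86, adjusted p = 0.042; r without 2 calves -0.60).

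All 7 germ cell genes were measured, each above the 25th percentile of the array. Their mean deviation ran from -0.02 to 0.63 in Mix, from -0.46 to 0.14 in OSe and from -0.47 to 0.28 in ISe calves. Mix animal 3 was the highest calf of the germ cell list, of EGR4 and of NR4A3, and ISe animal 3 was the lowest of all 3. The part of germ cell number in the EGR4 values was not tested.

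KLF10 followed the Leydig cell list (INSL3, CYP17A1, CYP11A1, HSD3B1, LHCGR and NR5A1, 6 of 7 genes measured) with an r of 0.85 (adjusted permutation p = 0.0385) and a rho of 0.89 (adjusted p = 0.042), and 0.86 without 2 calves. After quantile normalization it missed the threshold narrowly (r 0.84, adjusted p = 0.0507). With 1 calf left out r ran from 0.82 to 0.89, and it missed the threshold without Mix animal 3 or 4, OSe animal 1, 2 or 4, or ISe animal 2, 3 or 5 (adjusted p up to 0.114, without OSe animal 1). SGK1 had an r of 0.79 with that list and missed it too (adjusted p = 0.0866; rho 0.79, adjusted p = 0.131; r without 2 calves 0.80). An r of 0.7 or more with the Leydig list was reached by 4 of the 35 genes, against 0.642% of all genes. NR4A1 was among these 4, but its r lay below 0.7 without OSe animal 3. With the list of other inducible early genes 7 of the 35 reached it, against 2.09% of all genes. With each of the other 12 lists 0 to 3 did, against 0.105% (heat shock) to 3.64% (stroma) of all genes. The 3 were with the granulocyte list, where 3.36% of all genes reached it. The Leydig list's mean deviation ran from -0.34 to 0.24 in Mix, from -0.48 to 0.61 in OSe and from -0.29 to 0.01 in ISe calves, with OSe animal 3 highest, the calf with the high NR4A1. CYP17A1 (SD 0.64) and CYP11A1 (SD 0.61) varied most of the 6 Leydig genes and so weighed most in the list mean. CYP11A1 alone had an r of 0.92 with KLF10 and of 0.87 with SGK1. No Leydig gene lay below the 25th percentile. The part of Leydig cell number, or of single genes of the list, in these values was not tested.

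**Figure D4:**
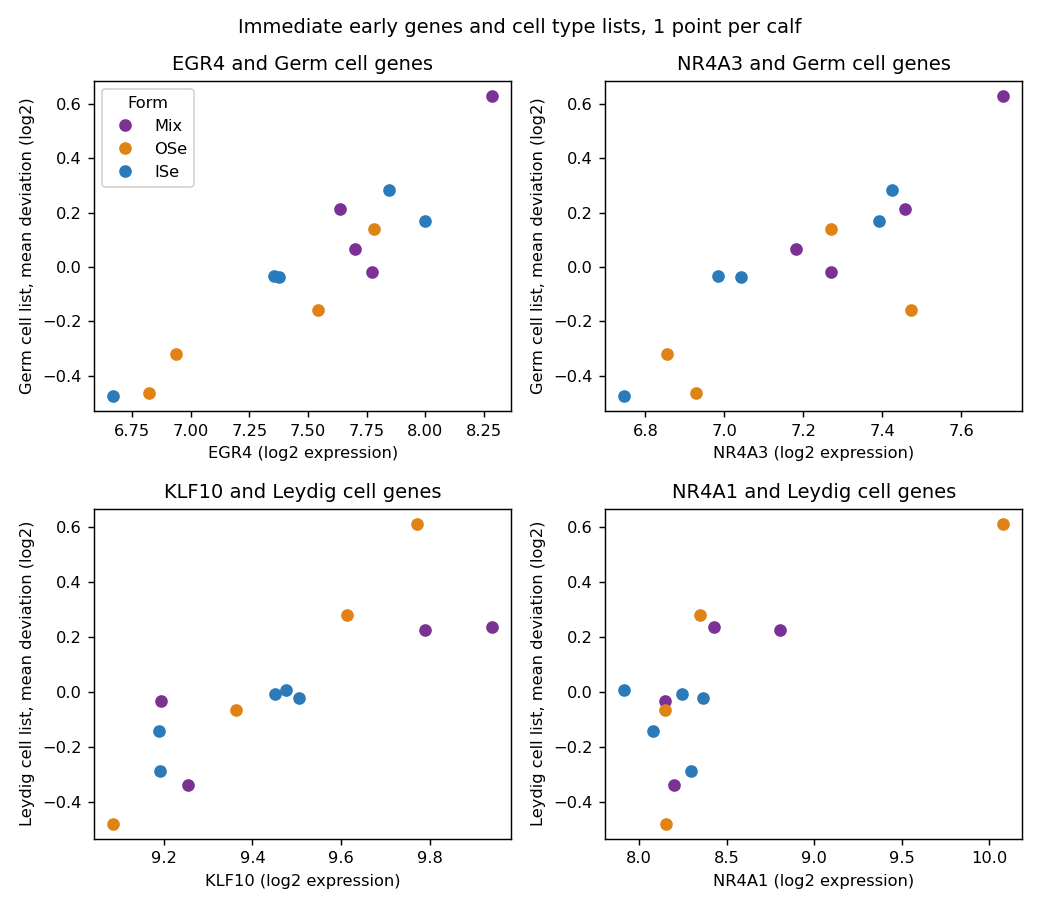
Log2 expression of EGR4 and NR4A3 against the mean deviation of 7 germ cell genes (top), and of KLF10 and NR4A1 against that of 6 Leydig cell genes (bottom), 1 point per calf coloured by selenium form. EGR4 rises with the germ cell list across all 3 forms (r 0.94), and the lone NR4A1 point at 10.08 is also the highest Leydig point.

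In the comparison of the mixture with the inorganic form, Mix means lay above ISe means for 30 of the 35 genes, with a median difference of 0.11 on the log2 scale, against 51.5% of all probe sets and a median of 0.0047. No probe set passed limma's adjusted test (0 of 26773, and 995 at an unadjusted p under 0.05, which is 3.72%), and 2 of the 35 genes had an unadjusted p under 0.05. SOCS3 lay higher in Mix by 0.29 ± 0.09 (SE, adjusted p = 0.967 in limma) and JUNB by 0.31 ± 0.11 (adjusted p = 0.967). JUNB was the 1 gene of the list with no overlap between Mix and ISe calves, where 0.549% of all probe sets were higher in Mix without overlap. EGR2 at 0.23 ± 0.12, FOSL1 at 0.26 ± 0.15 and NR4A3 at 0.29 ± 0.17 came next. FOSL1 was at 0.12 without Mix animal 2, EGR2 at 0.14 without ISe animal 3 and NR4A3 at 0.19 without Mix animal 3. The 5 genes with lower means in Mix were BTG1 (-0.15), BTG2 (-0.10), JUN (-0.05), JUND (-0.02) and GADD45B (-0.02). Of these, JUN was at 0.02 without Mix animal 2, JUND at 0.05 without Mix animal 3 and GADD45B at 0.17 without ISe animal 1, and BTG1 was at -0.10 without Mix animal 2 and BTG2 at -0.06 without Mix animal 3.

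Mix means lay above ISe means for 14 of 14 dim genes, with a median of 0.12, where 58.5% of all dim probe sets did. They did so for 16 of 21 bright genes, with a median of 0.10, where 44.5% of all bright probe sets did. The mean differences were 0.18 for dim and 0.11 for bright genes, whereas after quantile normalization the medians were 0.10 for dim and 0.12 for bright genes. FOS stood at 0.29 ± 0.21, EGR1 at 0.28 ± 0.17, EGR4 at 0.40 ± 0.27 and SGK1 at 0.35 ± 0.22 (SE, adjusted p = 0.967 each in limma), with overlapping groups for all 4. Single calves moved each of them: FOS was at 0.16 and SGK1 at 0.22 without Mix animal 4, EGR1 at 0.18 without ISe animal 1 and EGR4 at 0.21 without ISe animal 3. Quantile normalization and centring of the arrays left the counts at 30 of 35 and 14 of 14. With 1 calf left out the count over the 35 genes ran from 29 to 31. Of the dim genes only EGR3 changed sign, from 0.06 to -0.02 without Mix animal 4.

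Markers of some other cells moved beside the list in Mix minus ISe, with no adjusted p under 0.05 in limma. Of all probe sets, 51.5% lay higher in Mix. So did 4 of 8 Sertoli, 3 of 9 endothelial, 4 of 6 erythroid and 2 of 6 lymphocyte genes. The counts were 3 of 5 for peritubular myoid, 5 of 6 for Leydig and 7 of 7 for germ cell genes. Stromal genes lay lower in Mix for 6 of 6 (median -0.34), with lumican, LUM, at -1.12 ± 0.43 (SE). They were also lower for 6 of 6 in OSe minus ISe (median -0.13) and in Mix minus OSe (median -0.21). LUM had the widest SD over 13 calves of the 6 stromal genes, 0.83, and so weighed most in their mean. Granulocyte genes lay higher for 5 of 6 (median 0.20), and macrophage genes for 6 of 7 (median 0.20). Among the granulocyte genes, S100A8 stood at 0.54 ± 0.23, S100A12 at 0.65 ± 0.30 and S100A9 at 0.26 ± 0.10. CSF3R stood at 0.13 ± 0.13, FCGR3A at 0.02 ± 0.31 and CXCR2 at -0.02 ± 0.13, so the granulocyte genes did not move alike. By calf, the stromal mean deviation ran from -0.37 to 0.02 in Mix, -0.39 to 0.55 in OSe and -0.20 to 0.38 in ISe. Of the 6 granulocyte genes 2 lay below the 25th percentile, S100A8 (mean 4.93) and CXCR2 (6.19). The granulocyte mean ran from -0.07 to 0.46 in Mix, -0.18 to 0.15 in OSe and -0.25 to 0.07 in ISe. For macrophage genes it ran from -0.04 to 0.38 in Mix, -0.49 to 0.15 in OSe and -0.44 to 0.21 in ISe. Their part in the values of the immediate early genes was not tested.

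**Figure D5:**
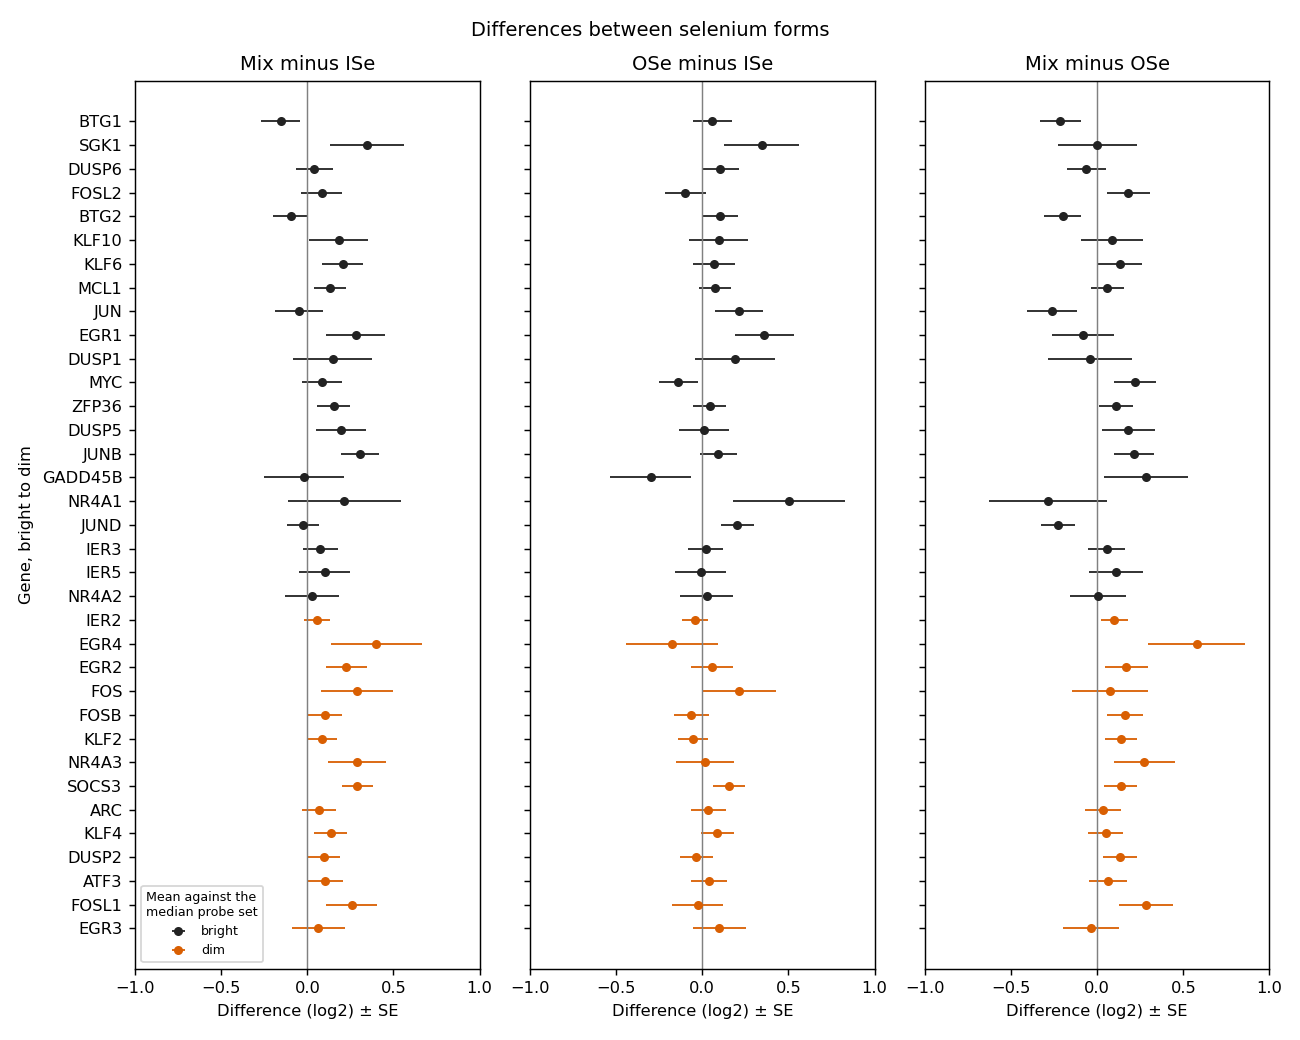
Difference between form means (log2, x axis, bars are SE from limma) for the 35 immediate early genes (rows, bright to dim) in Mix minus ISe (left), OSe minus ISe (middle) and Mix minus OSe (right), with bright genes in black and dim genes in orange. All 14 orange points lie right of 0 in the left panel, and JUND lies right of 0 in the middle panel and left of 0 in the right panel.

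In the comparison of the organic with the inorganic form, OSe means lay above ISe means for 25 of the 35 genes (71.4%), with a median of 0.06, against 59.5% of all probe sets and a median of 0.02. The count was 19 and the median 0.01 without OSe animal 2. After quantile normalization they were 21 and 0.04, and after centring 22 and 0.03. OSe means were the higher ones for 17 of 21 bright genes (median 0.07) and 8 of 14 dim genes (median 0.02). They were so for 62.3% of all bright and 56.7% of all dim probe sets. No probe set passed limma's adjusted test (0 of 26773, and 701 at an unadjusted p under 0.05, which is 2.62%), and 1 of the 35 had an unadjusted p under 0.05. That gene was JUND, higher in OSe by 0.20 ± 0.09 (SE, adjusted p = 1 in limma), and by 0.13 without OSe animal 2. EGR1 lay higher by 0.36 ± 0.17, SOCS3 by 0.15 ± 0.09 and SGK1 by 0.34 ± 0.22, all with an adjusted p of 1 in limma. NR4A1 stood at 0.50 ± 0.33 with all calves and at 0.04 without OSe animal 3. FOS stood at 0.21 ± 0.21 and at -0.03 without OSe animal 2.

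In the comparison of the mixture with the organic form, Mix means lay above OSe means for 26 of the 35 genes, with a median of 0.09, against 45.3% of all probe sets and a median of -0.02. With 1 calf left out the count ran from 22 (without Mix animal 4) to 28 (without OSe animal 2), and the median from 0.05 (without OSe animal 1; also 0.05 without Mix animal 2) to 0.14 (without OSe animal 2). No probe set passed limma's adjusted test (0 of 26773, and 2283 at an unadjusted p under 0.05, which is 8.53%), and 1 of the 35 had an unadjusted p under 0.05. JUND was again that gene, lower in Mix by 0.23 ± 0.10 (log2 difference -0.23, adjusted p = 0.581 in limma). Both JUND comparisons share the OSe calves. EGR4 lay higher in Mix by 0.58 ± 0.28 (adjusted p = 0.595 in limma) and JUNB by 0.21 ± 0.11 (adjusted p = 0.608). BTG2 at -0.20 ± 0.11 and MYC at 0.22 ± 0.12 leaned on OSe animal 3, without which they stood at -0.09 and 0.12. Mix means were the higher ones for 13 of 14 dim and 13 of 21 bright genes, where 51.6% of dim and 38.9% of bright probe sets were. The germ cell genes, which EGR4 followed over calves, lay higher in Mix for 7 of 7 against OSe, with a median of 0.48, and for 7 of 7 against ISe, with a median of 0.30.

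Genes that act before or beside the immediate early genes were read in the same fits, and none passed the adjusted test. Of 60 other inducible early genes 54 were measured, and Mix lay above ISe for 39 of them (72.2%, median 0.11), where 51.5% of all probe sets did, with 5 at an unadjusted p under 0.05 in limma, where 3.72% of all probe sets were. These were TNFAIP3 (0.23 ± 0.08) and IRF1 (0.49 ± 0.16), a brake and an effector of cytokine signalling, and SERTAD1 (0.26 ± 0.10), BHLHE40 (0.28 ± 0.12) and CSRNP1 (0.20 ± 0.09). OSe lay above ISe for 35 of the 54 (64.8%, median 0.03), near the 59.5% of all probe sets, and NFKBIZ, a nuclear regulator of NF-kappaB, stood at 0.22 ± 0.09. Mix lay above OSe for 37 of the 54 (68.5%, median 0.08), where 45.3% of all probe sets did, with TNFAIP3 at 0.23 ± 0.08, SERTAD1 at 0.22 ± 0.10 and INHBA, an activin subunit, at -0.28 ± 0.13.

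Among the kinases and factors that switch immediate early genes on, 31 of 34 were measured. Mix lay above ISe for 17 (54.8%), OSe above ISe for 23 (74.2%) and Mix above OSe for 14 (45.2%), where 51.5%, 59.5% and 45.3% of all probe sets did. MAP2K6, which activates p38 kinases, stood at -0.40 ± 0.18 in Mix minus ISe. CREB1, the cyclic AMP response factor that binds the FOS promoter, stood at -0.28 ± 0.11 and the p38 kinase MAPK14 at -0.16 ± 0.07 in Mix minus OSe. Of 12 heat shock genes 9 were measured, higher in Mix than ISe for 6, in OSe than ISe for 8 and in Mix than OSe for 2. HSPA1A, the inducible HSP70, stood at 0.70 ± 0.19 in OSe minus ISe and at -0.59 ± 0.20 in Mix minus OSe. All 19 hypoxia genes were measured, higher in Mix than ISe for 10 (median 0.02), in OSe than ISe for 10 and in Mix than OSe for 7. LDHA stood at 0.33 ± 0.11 in Mix minus ISe and 0.35 ± 0.12 in Mix minus OSe, and PFKFB4 at -0.45 ± 0.18 in Mix minus OSe. The adjusted p in limma was 0.967 in Mix minus ISe, 1 in OSe minus ISe, and between 0.581 and 0.584 in Mix minus OSe for every gene named here and in the sentences on other inducible early genes.

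The genes outside the list that were most like FOS and EGR1 were sought among 14282 genes with a mean above the 25th percentile, by Pearson r over 13 calves and as a description. For FOS they were DBNDD1 and USP47 (r 0.89 each), C7H5orf63 (0.88), CWC25 (0.87), MEAF6 (0.85), CRNKL1, NIPA2 and WASHC5 (0.84 each), and BRWD1 and SPCS3 (0.83 each). Without the 2 calves farthest in FOS, these ran from 0.76 for DBNDD1 to 0.24 for SPCS3. For EGR1 they were TREX1 (0.85), RTN4 (0.83), C7H1orf35 and UMPS (0.80 each), CDC16, ZDHHC17, DGKH and TERF1 (0.78 each), and JAM2 and EPB41L5 (0.77 each). No gene was among the 10 of both. The immediate early genes counted in the list were not eligible, but genes of the list of other inducible early genes could be. NFKBIA of that list, for example, was among the 10 genes most like IER3. No gene of that list was among the 10 of FOS or of EGR1.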

How the data were processed

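The authors' deposited series table gave 1 log2 expression value per probe set and array, for 26773 probe sets and 13 arrays. Per the labels' protocols, Trizol-extracted RNA was primed with oligo(dT) and turned into biotin-labelled cRNA, and GCOS 1.2 and Partek 6.4 were named per the submitters' processing notes. Background correction, normalization and centring are not given in the sources used here. Signal over background was not used, and precision is limited by how many arrays there are.

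Samples were grouped by title. Probe sets were named through the platform annotation, and all 35 gene symbols matched the RefSeq gene table of assembly ARS-UCD2.0. No coordinates were taken from it, since the files name no build. No arrays held identical values. Each array came from its own calf, so p-values measure the spread between calves.

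A mean per form was fitted over all 13 arrays with limma 3.58.1 (R 4.3.3). Spreads were moderated by empirical Bayes with 3.28 prior degrees of freedom, with two-sided tests and Benjamini-Hochberg adjustment over all 26773 probe sets within a comparison at a threshold of 0.05. Correlations used permutation tests with 100000 resamples under Python 3.11.15 and scipy 1.17.1. Their p-values were adjusted within each family of relations. The fit was tested on simulated data. Alternatives were quantile normalization, median centring, trend and robust moderation, no moderation, a filter at the 25th percentile, a replicate block, the mean of a gene's probe sets, probe sets with a single symbol, deviations from the form means, and each calf left out.

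The immediate early genes and the other lists were chosen with earlier results of these data known, so their counts and p-values are no independent support. Genes named with values were 10 classic members, the 5 members with the smallest p in a comparison, those with the widest and narrowest SD, the brightest and dimmest, the most and least correlated pairs, up to 4 genes per other list by smallest p, and the 10 genes most like FOS and EGR1. Calf values of other members were chosen after they were seen.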

Additional observations from a re-analysis of the deposited data

Results flagged for a closer look

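In 6 of 105 groups (35 genes in 3 forms), 1 calf lay apart from the others of its form by Dixon's criterion, which chance meets in about 1 in 20 groups. NR4A1 was 10.08 in OSe animal 3, with the next OSe calf at 8.35, and DUSP6 was 9.99 in OSe animal 2, with the next at 9.61. In ISe animal 5, FOSL1 was 5.91 and KLF2 6.98, with the nearest ISe calves at 6.45 and 7.24. EGR2 was 6.98 in ISe animal 3, with the nearest ISe calf at 7.36. DUSP5 was 9.02 in ISe animal 4, with the next at 8.55. The array of OSe animal 2 had the highest median of the 13, and its part in the DUSP6 value was not tested.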

How the results depend on the processing

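The 4 limma tests gave 0 calls under every alternative that kept all calves. With 1 calf left out, the F test and Mix minus OSe gave 0 to 1 calls, the 1 being without OSe animal 3 (lowest adjusted p = 0.0328 and 0.0123), and Mix minus ISe and OSe minus ISe gave 0 throughout. The share of probe sets at an unadjusted p under 0.05 in Mix minus ISe was 6.47% without ISe animal 4, against 3.72%. Member pairs past the adjusted threshold numbered 5, against 2 after quantile normalization and 2 to 5 with 1 calf left out (2 without OSe animal 2, and 3 without Mix animal 2, OSe animal 4 or ISe animal 4). Relations of the 35 genes with the lists numbered 3, against 8 on deviations from the form means, 9 after median centring and 1 to 5 with 1 calf left out (5 without ISe animal 1, and 1 without Mix animal 3 or 4, OSe animal 1, 2 or 4, or ISe animal 2). The causes were not tested. Signs were checked for the 5 members with the smallest p in each comparison and for the correlations that had passed, and none changed. Other members did change sign with 1 calf left out. Without OSe animal 3, NR4A1 went from -0.29 to 0.18 in Mix minus OSe. Without OSe animal 2, FOS went from 0.21 to -0.03 in OSe minus ISe.

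Calves with the same number in different forms did not deviate together (r of their deviations -0.15 to 0.10 over 12 pairs, against -0.26 to 0.29 over 44 pairs with other numbers), so the numbers served as names only. With the animal number as a replicate block there were 0 calls in each limma test, and Mix lay above ISe for 29 of the 35 genes, OSe above ISe for 22 and Mix above OSe for 26.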

Other observations

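Neighbours of other immediate early genes were looked up after their values were seen, and r is given over 13 calves as a description, among 14282 genes. EGR4 was most like HOXC13 (r 0.99), PHF24, RET, CPA4 and RBM38 (0.97 each), and the germline RNA-silencing genes PIWIL4 and TDRD9 with FKBP6 were among its 10 nearest (0.96 each). These 3 had r of 0.94, 0.97 and 0.93 without the 2 calves farthest in EGR4. KLF10 was most like GNB1 and CYP11A1, the enzyme that opens steroid synthesis (0.92 each), and SARAF (0.91).

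NR4A1 was most like CYB5B (0.94) and the cholesterol synthesis gene SQLE (0.93), and LSS (0.89), DHCR7 (0.88) and NSDHL (0.87), also of cholesterol synthesis, were among its 10 nearest. Without the 2 calves farthest in NR4A1, r was 0.41 for CYB5B, 0.14 for SQLE and -0.21 for NSDHL. A list of 17 measured sterol synthesis genes, chosen after values were seen, had a mean deviation of 0.97 in OSe animal 3 and of -0.26 to 0.03 in the other 12 calves. The list holds SQLE, LSS, DHCR7 and NSDHL, so its high mean in OSe animal 3 is no independent support. NR4A1 had an r of 0.83 with the list, and of -0.36 without 2 calves.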
